A study of Mus musculus with 1047 samples.

Results

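Microglia from white matter were set against microglia from grey matter of the same aged mice labelled Trem2ko, across all genes. Cells were taken where the labels gave the genotype Trem2ko, and their reads were summed per animal and tissue. Animals with 5 or more cells in both tissues were kept. This gave 558 cells, 293 of white and 265 of grey matter, of the 1047 samples in the series and the 847 aged cells of the Smart-seq2 experiment, in which each well of a plate yields a whole-transcript library from 1 cell. The 5 animals were A8 (male), A9 and A10 (female), all 20 months old, and A11 (female) and A12 (male), 18 months old. Each gave 31 to 99 white and 28 to 83 grey matter cells. A sixth labelled animal, A13, had 4 white and 2 grey matter cells and was left out. White matter was taken from the optic tract, the medial lemniscus and the corpus callosum, and grey matter from the frontal cortex. Tissue was dissociated with actinomycin D, which stops transcription, and sorting kept live CD45+ CD11b+ cells. The WT animals of the same experiment, 6 males of 18 to 19 months labelled C57BL/6J, shared the estimate of the spread and gave the difference of tissue effects (136 white and 131 grey matter cells). Another WT animal, A1, had 14 grey matter cells and none of white matter and was left out. The knockout allele is not given in the sources used here.

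Microglia are the resident macrophages of the brain. TREM2 is a lipid-binding receptor on their surface that signals through the adaptor TYROBP. White matter is rich in myelin, a lipid-dense membrane that microglia take up, and in ageing white matter microglia are known to turn down homeostatic genes such as P2ry12 and Tmem119 and to turn up genes of lipid handling, antigen presentation and lysosomes. In models of disease, the full form of this activated state, with Lpl, Cst7, Spp1, Clec7a and Itgax, is known to depend on Trem2, whereas a first step with Apoe and B2m is less dependent on it.

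The cells were microglia by their markers. P2ry12, Tmem119, Cx3cr1, Csf1r, Siglech and C1qa were read in 100% of the labelled Trem2ko cells. T cell, neuron and pericyte markers summed to at most 3.19 CPM (counts scaled to a common library total) in any white matter library and 1.32 CPM in any grey matter library, and Cd8a, Trac and Rbfox3 were at 0. Other marker lists gave higher sums. B cell markers summed to 806 to 1426 CPM in white matter and 814 to 1551 CPM in grey matter, with Ighm read in 96.8% of cells. Neutrophil markers summed to 475 to 945 CPM in white matter and 267 to 962 CPM in grey matter, with Csf3r read in 93.6% of cells. Oligodendrocyte markers summed to 200 to 390 CPM in white matter and 190 to 293 CPM in grey matter, with Cnp in 62.8% and Mag in 40.8% of cells. Border macrophage markers summed to 118 to 235 CPM in white matter and 114 to 400 CPM in grey matter, with Stab1 in 84.2% of cells and Lyve1 at 0. Astrocyte markers summed to 36.5 to 161 CPM in white matter and 64.2 to 195 CPM in grey matter, and endothelial markers to 0 to 37.0 CPM in white matter and 1.43 to 30.8 CPM in grey matter. Their part in the results was not tested. Ependymal and choroid plexus markers summed to 420 CPM in white matter of A9 and to at most 20.9 CPM in any other library. Monocyte markers summed to 1.11 to 26.9 CPM in white matter and 1.05 to 10.9 CPM in grey matter. White matter libraries held 2901355 to 59748018 counts and grey matter libraries 2865629 to 43339071 counts. Median reads per cell were 75453 to 561948 in white and 90485 to 563115 in grey matter. A11 and A12 were sequenced on other plates than A8, A9 and A10 and at greater depth. Reads of Trem2 itself were present in every labelled animal. They made up 274, 378, 707, 411 and 2032 CPM of white matter of A8 to A12 in that order, against 1794 to 3970 CPM in WT white matter. In grey matter they made up 605, 590, 376, 345 and 1453 CPM, against 2137 to 5205 CPM in WT grey matter. The white matter of A12 therefore lay within the WT range, against its label, and the counts per gene cannot show which exons the reads came from. Fitted values without A12 are given beside the leading genes. Levels of genes are TMM-scaled CPM, whereas marker sums, Trem2 above, values per cell and values on single plates are unscaled CPM.

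No gene passed an adjusted p of 0.05 in white minus grey matter of the labelled Trem2ko animals (edgeR quasi-likelihood test with the animal as a block, Benjamini-Hochberg over 9920 genes), so 0% were called in either direction. The fitted fold change was positive for 4950 genes and negative for 4970. An unadjusted p under 0.05 was reached by 135 genes that were higher in white matter (1.36%) and 121 that were lower (1.22%). In every animal, 356 genes were higher in white matter (3.59%) and 357 were lower (3.6%). Ranges of white and grey matter did not overlap for 63 genes with white matter higher (0.635%) and 50 with white matter lower (0.504%). With the 5 labelled animals fitted alone, 1 of 8884 genes passed, Apoe (0.0113%), with adjusted p = 0.000623 (edgeR). DESeq2 called 37 genes higher (0.396%) and 35 lower (0.375%) on the same libraries. With limma voom 844 of 9920 genes were called, 461 higher and 383 lower. The p-values below are those of edgeR, and the absence of a call does not show that a gene did not differ. Values of the members therefore stand as measurements with their spread. Each edgeR p sets the tissue difference of the 5 animals against a spread estimated from the 22 libraries of 11 animals, WT included, and fewer cells of a state and less RNA per cell cannot be told apart in the summed libraries.

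Apoe, whose protein carries cholesterol and other lipids between brain cells, and Lpl, which encodes lipoprotein lipase, had the smallest p among the genes higher in white matter. Apoe stood at 6617, 11557, 8797, 12748 and 5754 CPM in white matter of A8 to A12, against 666, 625, 425, 316 and 348 CPM in their grey matter. The lowest white matter library thus held more Apoe than the highest grey matter library. The mean was 9095 ± 3033 CPM in white matter and 476 ± 161 CPM in grey matter (SD, n = 5), and the fitted log2 fold change was 4.25 ± 0.68 (SE), with adjusted p = 0.222 (edgeR). Without A12 it was 4.31. Lpl stood at 238, 47.7, 182, 28.8 and 179 CPM in white matter, against 1.05, 4.42, 2.80, 0.44 and 7.04 CPM in grey matter. Its fitted log2 fold change was 5.52 ± 1.04 (SE), with adjusted p = 0.222 (edgeR), and 5.78 without A12. The size of that change rests on grey matter levels near 0. Apoe lies on chromosome 7 at 19696109 to 19699188 and Lpl on chromosome 8 at 68880491 to 68907448 of GRCm38, and both are protein-coding. Leaving out single WT animals, which share the estimate of the spread, changed the call: without WT A4 Apoe passed (adjusted p = 9.19e-05), and without WT A7 Lpl passed (adjusted p = 0.00414, both edgeR).

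**Figure D1:**
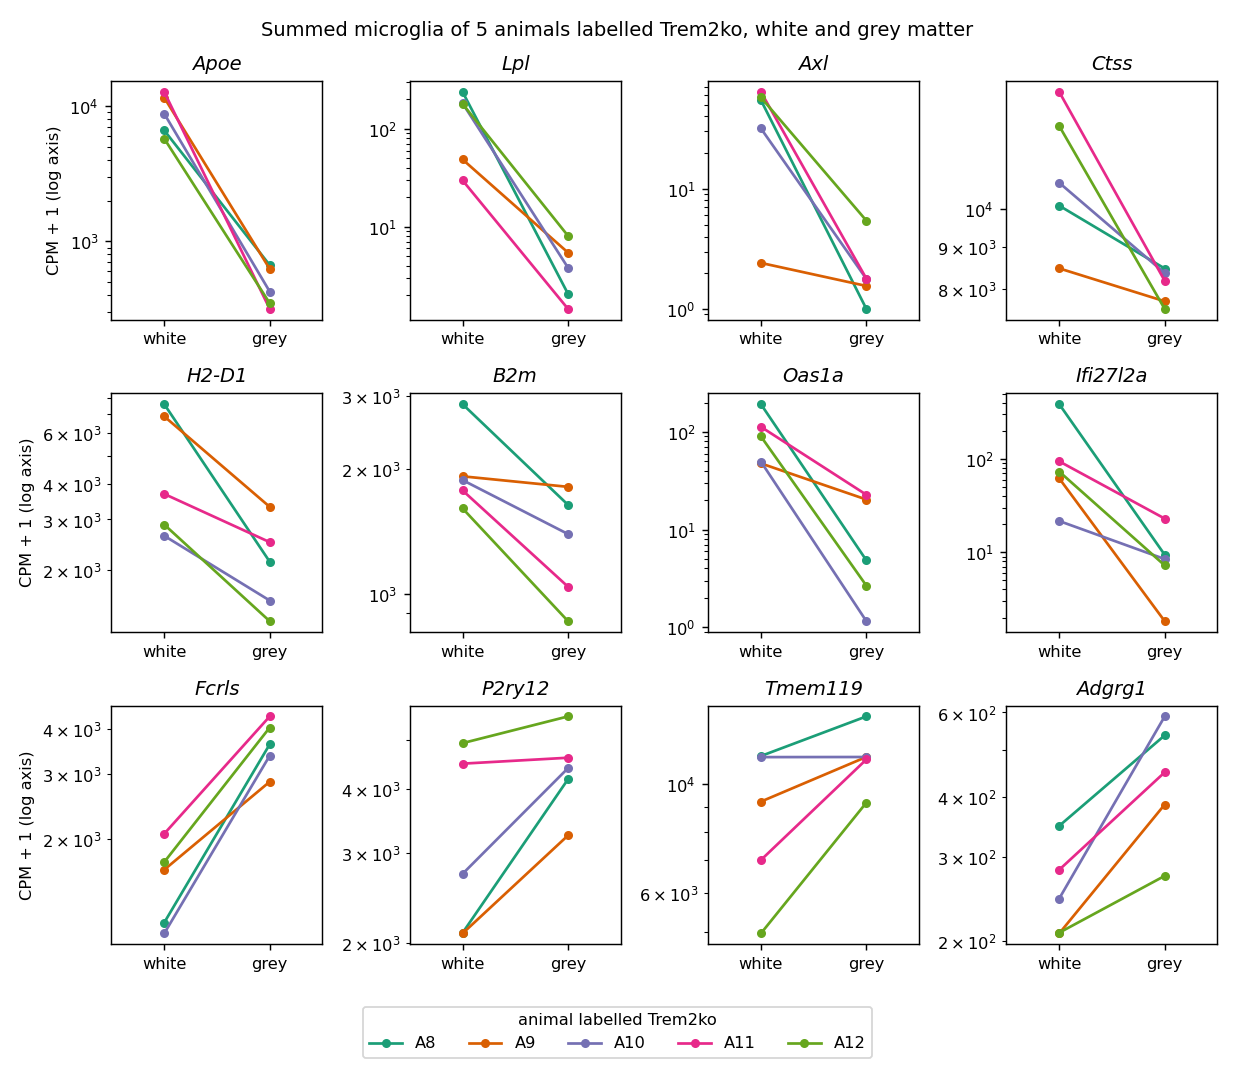
CPM + 1 (log axis) of 12 genes in the summed white (left) and grey (right) matter microglia of 5 animals labelled Trem2ko, 1 line per animal. Apoe, Lpl and Ctss were higher in every white matter library than in any grey matter library, and Fcrls was lower. Tmem119 and P2ry12 were also lower in white matter of each animal, with ranges that overlap. The lines of Tmem119 in A10 and of P2ry12 in A11 are nearly flat.

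Most of the Apoe was in a minority of cells. Every labelled Trem2ko cell of both tissues had a read of Apoe. Cells with at least 10000 CPM of Apoe made up 11.8%, 6.45%, 5.88%, 16.8% and 11.1% of white matter cells of A8 to A12, against 3.57%, 0%, 2.27%, 0% and 0% of grey matter cells. The share was higher in white matter in 5 of 5 animals, by 9.24 ± 5.05 percentage points (SD), with p = 0.0625 (exact sign-flip permutation test, two-sided), the smallest p that 5 animals allow. The direction rested on few cells in A9, with 2 of 31 white and 0 of 35 grey matter cells. In A10 it rested on 2 of 34 white and 1 of 44 grey matter cells. Cells with at least 1000 CPM made up 20.6%, 25.8%, 14.7%, 24.2% and 34.3% of white matter cells, against 7.14%, 28.6%, 9.09%, 4% and 10.8% of grey matter cells. At that level white matter was higher in 4 of 5 animals and A9 went the other way (p = 0.125, exact sign-flip permutation test, two-sided). Summed over the cells of 1 library, the tenth of white matter cells with the most Apoe held 83.1% to 95.3% of the cells' Apoe CPM, against 49.6% to 71.9% in grey matter. The median cell showed a smaller difference, at 224 to 560 CPM in white matter and 72.7 to 266 CPM in grey matter, and was higher in white matter in 4 of 5 animals. In A8 it was 224 CPM in white matter and 227 CPM in grey matter. Lpl followed the same form: cells with at least 100 CPM of Lpl made up 2.11% to 20.6% of white and 0% to 3.61% of grey matter cells, higher in white matter in 5 of 5 animals. Here too some shares rested on few cells, at 3.23% of 31 white matter cells in A9 and 2.11% of 95 in A11. The share of cells with any read of Lpl was higher in white matter in 3 of 5 animals. It was 26.5% in white and 34.1% in grey matter of A10, and 62.6% in white and 66.3% in grey matter of A12. With cells of at least 50000 reads thinned to that depth, it was higher in white matter in 5 of 5. The levels per cell of Apoe and Lpl were chosen with the values in view.

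The same share was larger in WT white matter. Cells with at least 10000 CPM of Apoe made up 5.88% to 16.8% of labelled Trem2ko white matter cells, against 14.3% to 65.9% of WT white matter cells. WT animals held 136 white matter cells in all, against 293 of labelled Trem2ko animals. Single WT shares, such as the 14.3% of A6, therefore also rest on few cells. The white minus grey difference was 9.24 ± 5.05 percentage points in labelled Trem2ko animals (SD, n = 5) and 38.2 ± 17.8 in WT animals (n = 6). It differed by -28.9 points between genotypes, with p = 0.00649 (exact permutation of genotype over animals, two-sided) and 0.0260 adjusted over 4 such shares. The levels per cell were chosen with the values in view, and the adjustment does not cover that choice, so these p-values are a description. For cells with at least 1000 CPM of Apoe the differences were 12.0 ± 10.7 points in labelled Trem2ko and 42.8 ± 22.9 points in WT animals, with adjusted exact permutation p = 0.0390. Without A12 both adjusted exact permutation p were 0.0571, and within the part of the data that holds A8, A9, A10 and all WT animals the difference was -32.1 points with unadjusted p = 0.0238 and adjusted p = 0.0952 (exact permutation). In the summed libraries, Apoe had a fitted log2 fold change of 4.25 ± 0.68 in labelled Trem2ko and 4.67 ± 0.66 in WT animals, a difference of -0.41 ± 0.86 (SE; adjusted p = 1, edgeR). The genotypes lay on separate plates and differed in sex and partly in age, so these cannot be told apart from genotype. Shares of cells with at least 100 CPM of Lpl or of Fcrls had adjusted exact permutation p of 0.182 and 0.457 for the difference between genotypes.

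**Figure D2:**
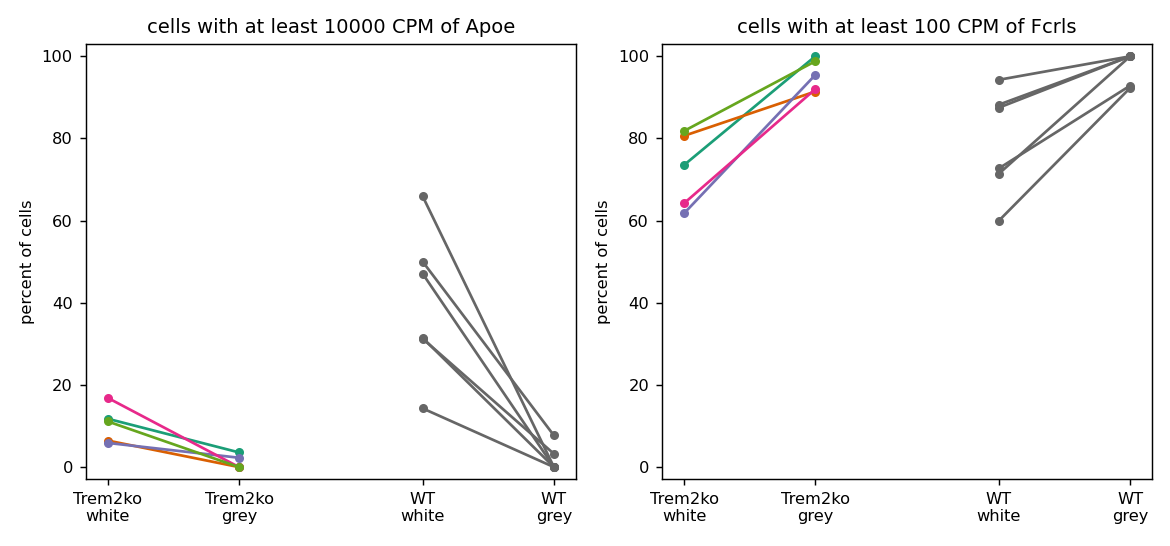
Percent of cells per animal with at least 10000 CPM of Apoe (left panel) and at least 100 CPM of Fcrls (right panel), in white and grey matter of 5 labelled Trem2ko animals (colours) and 6 WT animals (grey), 1 line per animal. The labelled Trem2ko white matter shares of Apoe sit between 5.88% and 16.8%, against 14.3% to 65.9% in WT white matter, while the Fcrls shares run over similar ranges.

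White and grey matter cells were not spread alike over plates. For A8, A9 and A10, most white matter cells lay on 1 plate and most grey matter cells on another, and another plate held 11 to 13 white and 8 to 14 grey matter cells of each. On that shared plate Apoe was 13285 CPM in white matter and 382 CPM in grey matter of A8, 1491 CPM in white matter and 1575 CPM in grey matter of A9, and 233 CPM in white matter and 477 CPM in grey matter of A10. So in A9 and A10 the shared plate did not show more Apoe in white matter, at 11 to 14 cells a library. In A11 and A12, whose plates all held both tissues, Apoe was 12594 and 6114 CPM in white against 316 and 373 CPM in grey matter. Their tissues were also spread unevenly over plates. Plate P4 held 21 white and 2 grey matter cells of A11, P5 61 white and 12 grey, and P8 13 white and 61 grey. For A12, P6 held 77 white and 16 grey matter cells, and P7 22 white and 67 grey. Values with plates that hold both tissues keep all of these cells. With plates that hold both tissues alone, the fitted log2 fold change of Apoe was 2.95, against 4.25 with all plates, while Lpl (5.32), H2-D1 (1.26) and Fcrls (-1.13) were near their values with all plates. On the shared plate Lpl was also not higher in white matter of A9 (9.56 CPM, against 13.1 CPM in grey matter). In white matter of A10, B2m stood at 1009 CPM, Ctss at 6113 CPM and Arpc1b at 971 CPM, each lower than in its grey matter, at 1341 CPM for B2m, 7270 CPM for Ctss and 1318 CPM for Arpc1b. The part of the plates in these results was not tested.

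Other genes of lipid handling followed in part. Of 29 genes for lipid uptake, storage and efflux, Apoe and Lpl among them, 23 were in the data and 19 were tested. Of these, 13 had a positive fold change and 6 a negative one, Abca1 (-0.53), Abcg1 (-0.73) and Npc1 (-1.05) among the negative. An unadjusted p under 0.05 with white matter higher was reached by 3 (Lpl, Apoe and Ch25h), against 1.36% of all genes. The 2 that were higher in 5 of 5 animals were Apoe and Lpl themselves, against 3.59% of all genes. The median log2 fold change was 0.41, against 0.00 over all genes tested. Ch25h, which makes an oxysterol from cholesterol, stood at 41.7, 27.6, 0.29, 10.9 and 2.23 CPM in white matter and at no more than 0.55 CPM in grey matter, so A10 showed no difference. Nceh1, a cholesteryl ester hydrolase, averaged 47.8 ± 21.4 CPM in white matter and 27.2 ± 51.6 CPM in grey matter, where A10 stood at 119 CPM. Of 13 tested cholesterol synthesis genes 9 were positive and 0 reached an unadjusted p under 0.05 (edgeR). Srebf2, Hmgcs1, Lss and Insig1, the members with the smallest p, averaged at most 10.3 CPM in either tissue.

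Genes of the activated state had mostly positive fold changes. Of 28 genes, 26 were tested, 22 were positive and 4 negative, 11 reached an unadjusted p under 0.05 with white matter higher against 1.36% of all genes, and 8 were higher in 5 of 5 animals against 3.59% of all genes. The list was chosen with results of these data known, so its count is a description. Axl, a receptor tyrosine kinase for dying-cell debris, stood at 53.6, 1.41, 30.7, 62.9 and 56.5 CPM in white matter, against 0, 0.55, 0.78, 0.78 and 4.42 CPM in grey matter. In A9 its white matter level lay below the grey matter level of A12, so the ranges overlap. Its fitted log2 fold change was 5.05 ± 1.57 (SE; unadjusted p = 0.00525, adjusted p = 1, edgeR). Lyz2, which encodes lysozyme, stood at 947, 1102, 902, 1542 and 1202 CPM in white matter, against 514, 469, 359, 740 and 753 CPM in grey matter, with ranges that did not overlap and a log2 fold change of 1.04 ± 0.33. Csf1, the ligand of the receptor microglia need to survive, averaged 21.1 ± 25.1 CPM in white matter and 1.20 ± 2.55 CPM in grey matter.

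Of the genes named above for the full activated state, Lpl had an unadjusted p of 6.47e-05 (edgeR) and was higher in white matter in 5 of 5 animals. For the others the fitted log2 fold changes were 0.25 for Cst7, a cystatin, -0.79 for Itgax, an integrin chain, 1.97 for Spp1, osteopontin, and 2.68 for Clec7a, a pattern receptor, with unadjusted p of 0.867, 0.807, 0.120 and 0.125 (edgeR). In WT animals they were 5.84, 7.35, 6.86 and 6.61. Over the whole list the median fitted log2 fold change was 0.98 in labelled Trem2ko (1.68 without A10 and 1.77 without A11) and 4.17 in WT animals. These medians fall on different genes. Taken gene by gene, the median difference of tissue effects, Trem2ko minus WT, was -0.57 over the list and -0.08 over all genes tested. A negative difference of tissue effects was found for 25 of 26 members, against 5226 of 9920 genes tested. Of these differences 3 reached an unadjusted p under 0.05 and 0 an adjusted p of 0.05 (edgeR), so a difference between genotypes was not called for any member. Per animal, the list median of the difference in log2(CPM + 1) was 0.27 to 1.04 in labelled Trem2ko and 0.06 to 3.26 in WT animals, and these ranges overlap. Values per animal add 1 CPM before the logarithm, so they are not on the scale of the fitted medians, and 4.17 lies above every WT animal.

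Among class I antigen presentation genes, H2-D1, B2m and H2-K1 reached an unadjusted p under 0.05. H2-D1, a class I heavy chain, stood at 7590, 6879, 2630, 3683 and 2878 CPM in white matter, against 2134, 3320, 1561, 2498 and 1322 CPM in grey matter. White was above grey in each of the 5 animals, while the ranges of the tissues overlap. The fitted log2 fold change was 1.06 ± 0.22 (SE; adjusted p = 0.493, edgeR) and 1.05 without A12. The median cell held 1784 to 6953 CPM in white matter and 981 to 2768 CPM in grey matter and was higher in white matter in 5 of 5 animals. B2m, the shared light chain of class I, averaged 2008 ± 494 CPM in white matter and 1347 ± 398 CPM in grey matter, and H2-K1, another heavy chain, 1809 ± 721 CPM in white matter and 1060 ± 467 CPM in grey matter. Reads of near-identical class I genes may be shared between them, so single heavy chains are uncertain. Of 23 tested class I genes 19 were positive and 4 negative (Tapbp, Psmb9, Erap1 and Pdia3). The 3 at an unadjusted p under 0.05 stand against 1.36% of all genes, 5 were higher in 5 of 5 animals, against 3.59%, and the median log2 fold change was 0.44 in labelled Trem2ko and 0.42 in WT animals. For class II genes 9 of 10 tested were positive. Ifi30, a lysosomal thiol reductase, was the member with the smallest p at 0.94 ± 0.35 (SE; unadjusted p = 0.0151, edgeR), and 0.18 with plates that hold both tissues alone.

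Interferon response genes had a median fitted log2 fold change of 2.66 in labelled Trem2ko and 2.39 in WT animals. Without A8 the labelled Trem2ko median was 1.29, and with plates that hold both tissues alone 1.42. Of 27 tested, 25 were positive. An unadjusted p under 0.05 was reached by 6, against 1.36% of all genes, and 4 were higher in 5 of 5 animals, against 3.59%. Animals differed: the list median of the difference in log2(CPM + 1) was 3.97, -1.20, 1.39, 1.92 and 2.96 in A8 to A12, so A9 went the other way. Ifi27l2a, an interferon-induced gene, stood at 384, 60.8, 20.6, 93.0 and 72.1 CPM in white matter, against 8.39, 0.83, 7.45, 21.9 and 6.23 CPM in grey matter. Cells of at least 50000 reads were thinned to that depth, which left out 14 white and 10 grey matter cells. Among them the share with a read of Ifi27l2a was 12.0% to 41.9% in white and 4.88% to 12.0% in grey matter. It was higher in white matter in 5 of 5 animals (p = 0.0625, exact sign-flip permutation test, the smallest possible). Unthinned and over all cells, the shares were 14.7% to 64.6% in white and 8.57% to 47.0% in grey matter. Oas1a, an enzyme that senses double-stranded RNA, stood at 192, 46.6, 48.7, 112 and 89.2 CPM in white matter, against 3.85, 19.3, 0.16, 21.7 and 1.67 CPM in grey matter, with no overlap. Irf7, a transcription factor of the interferon response, was higher in 4 of 5 animals and stood at 43.5 CPM in white matter and 194 CPM in grey matter of A9.

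Interferon-stimulated response elements, the sites bound by interferon regulatory factors, have the core GAAANNGAAA. The 300 bases from 250 before to 50 after the start of each gene (RefSeq, GRCm38.p6) were searched for these letters on both strands. They occurred in 11 of 17 promoters found for the interferon response genes (64.7%), in 5 of 19 of the class I genes (26.3%), in 3 of 21 of the activation genes (14.3%) and in 0 of 17 of the homeostatic genes (0%), against 3.12% of the promoters of all genes tested and 3.49% of all promoters. A match is a description, not a bound site. The named genes with a match were B2m, Oas1a and Ctss, the last of which encodes the lysosomal protease cathepsin S. They are shown 5′ to 3′ on the strand of the gene with the match in capitals, since all 3 were higher in white matter in 5 of 5 animals. The positions are chr2:122147437-122147736 (plus strand) for B2m, chr5:120907476-120907775 (minus strand) for Oas1a and chr3:95526536-95526835 (plus strand) for Ctss. In Oas1a, 2 matches overlap.
B2m: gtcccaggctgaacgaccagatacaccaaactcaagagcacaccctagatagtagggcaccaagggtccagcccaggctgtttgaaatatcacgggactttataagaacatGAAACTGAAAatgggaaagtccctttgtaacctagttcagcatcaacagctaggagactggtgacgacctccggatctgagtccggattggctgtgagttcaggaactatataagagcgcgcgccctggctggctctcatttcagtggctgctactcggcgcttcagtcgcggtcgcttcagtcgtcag
Oas1a: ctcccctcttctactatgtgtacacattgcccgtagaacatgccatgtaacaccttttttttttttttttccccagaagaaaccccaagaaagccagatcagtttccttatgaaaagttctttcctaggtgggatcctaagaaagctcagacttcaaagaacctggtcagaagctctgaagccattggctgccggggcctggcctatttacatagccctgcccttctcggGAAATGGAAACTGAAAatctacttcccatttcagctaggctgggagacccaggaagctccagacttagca
Ctss: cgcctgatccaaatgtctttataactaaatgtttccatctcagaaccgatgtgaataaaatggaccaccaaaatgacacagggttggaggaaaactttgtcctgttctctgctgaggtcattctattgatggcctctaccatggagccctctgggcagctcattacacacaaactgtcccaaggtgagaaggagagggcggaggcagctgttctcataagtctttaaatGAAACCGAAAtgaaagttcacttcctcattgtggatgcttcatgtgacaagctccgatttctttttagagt
The first match begins 139 bases before the start in B2m, 20 before it in Oas1a and 21 before it in Ctss.

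Among lysosomal genes Ctss had the smallest p. It stood at 10102, 8468, 10774, 13911 and 12640 CPM in white matter, against 8465, 7720, 8356, 8178 and 7556 CPM in grey matter. The ranges did not overlap, but the lowest white matter library, of A9, and the highest grey matter library, of A8, were nearly equal. The fitted log2 fold change was 0.45 ± 0.11 (SE; unadjusted p = 0.000536, adjusted p = 0.886, edgeR). Psap, the precursor of the saposins that help degrade sphingolipids, had 0.46 ± 0.14, Ctsh, cathepsin H, 0.49 ± 0.17, and Ctsl, cathepsin L, 0.45 ± 0.19. With plates that hold both tissues alone these were 0.30 for Psap, 0.25 for Ctsh and 0.25 for Ctsl. In WT animals Ctsh had 1.05 ± 0.16. Of 33 lysosomal genes tested 22 were positive and 11 negative, 4 reached an unadjusted p under 0.05 with white matter higher, against 1.36% of all genes, and the median was 0.14, against 0.00 over all genes tested.

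Among homeostatic microglia genes Fcrls had the smallest p. Fcrls, an Fc receptor-like gene that marks microglia, stood at 1179, 1644, 1101, 2062 and 1726 CPM in white matter, against 3623, 2863, 3373, 4319 and 4027 CPM in grey matter, and the ranges did not overlap. The fitted log2 fold change was -1.27 ± 0.23 (SE; adjusted p = 0.222, edgeR) and -1.27 without A12. Cells with at least 100 CPM of Fcrls made up 61.8% to 81.8% of white and 91.4% to 100% of grey matter cells, lower in white matter in 5 of 5 animals (p = 0.0625, exact sign-flip permutation test, the smallest possible). The median cell held 279 to 1225 CPM in white matter and 2712 to 3479 CPM in grey matter and was lower in white matter in 5 of 5 animals. P2ry12, the ADP receptor that guides microglial processes, stood at 2090, 2085, 2728, 4489 and 4925 CPM in white matter, against 4185, 3246, 4400, 4611 and 5557 CPM in grey matter. Its log2 fold change was -0.51 ± 0.15, with -0.77 in A8, A9 and A10 and -0.08 in A11 and A12. Tmem119, a membrane protein of microglia, showed the opposite split, at -0.18 in A8, A9 and A10 and -0.76 in A11 and A12. In A10 its levels were nearly equal, at 11363 CPM in white matter and 11369 CPM in grey matter. With plates that hold both tissues alone Tmem119 had -0.79 and passed the threshold (adjusted p = 0.0498, edgeR), against -0.43 ± 0.14 with all plates.

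Of 24 homeostatic genes, all of which were tested, 21 were negative and 3 positive. An unadjusted p under 0.05 was reached by 4 (Fcrls, P2ry12, Tmem119 and Selplg), against 1.22% of all genes, and 6 were lower in 5 of 5 animals, against 3.6%. These 6 include Tmem119, which was nearly equal in the tissues of A10. Selplg, a ligand of selectins, averaged 9647 ± 928 CPM in white matter and 11376 ± 1174 CPM in grey matter, a log2 fold change of -0.24 ± 0.11, and -0.53 with plates that hold both tissues alone. The median fitted log2 fold change of the list was -0.29 in labelled Trem2ko and -0.49 in WT animals. The list median of the difference in log2(CPM + 1) was negative in each of the 11 animals. Sall1, a transcription factor of microglial identity, had a log2 fold change of 0.06. Of 19 identity transcription factors 10 were positive and 9 negative. Adgrg1, an adhesion receptor, and Ptafr, the receptor for platelet-activating factor, were outside that list and lower in 5 of 5 animals, at -0.77 ± 0.25 and -0.86 ± 0.25. Without cells that hold the planned markers of other cell types, some of which microglia express, Adgrg1 was at -0.0099.

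**Figure D3:**
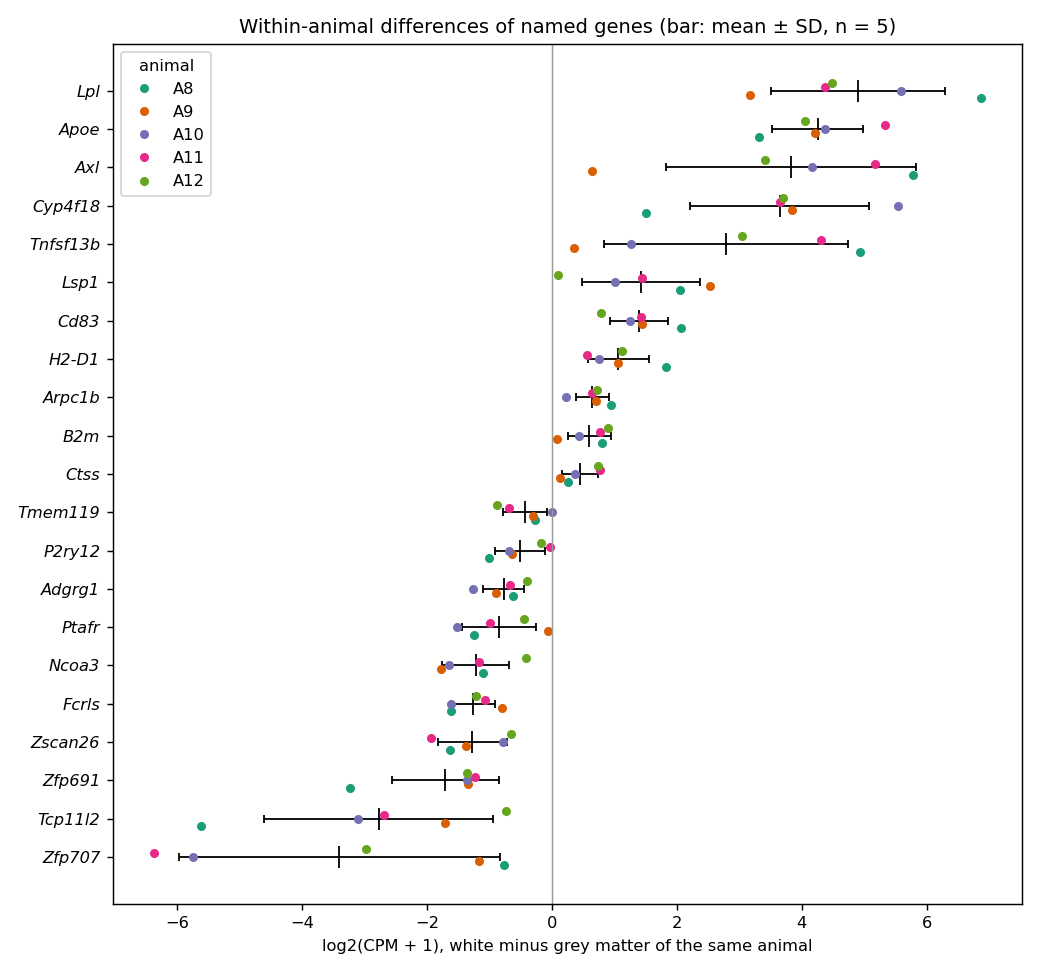
Difference of log2(CPM + 1), white minus grey matter, in each of 5 labelled Trem2ko animals for the genes with the smallest p in each direction and the 5 chosen markers, with mean and SD as black bars. Lpl, Apoe, Axl and Cyp4f18 have means above 3, and A9 is the lowest animal for Axl, Tnfsf13b, B2m and Lpl.

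Genes with the smallest p outside these lists included Arpc1b, a subunit of the actin-branching ARP2/3 complex, at 1809 ± 293 CPM in white matter and 1165 ± 268 CPM in grey matter. Its log2 fold change was 0.65 ± 0.15, and 0.32 with plates that hold both tissues alone. Cd83, an immunoglobulin-family protein of activated antigen-presenting cells, stood at 296, 350, 247, 264 and 276 CPM in white matter, against 69.9, 128, 103, 97.5 and 160 CPM in grey matter, with no overlap and a log2 fold change of 1.40 ± 0.36 (SE; unadjusted p = 0.00121, adjusted p = 1, edgeR). Tnfsf13b, the B cell survival factor BAFF, stood at 115 to 223 CPM in white matter and 2.80 to 100 CPM in grey matter. Cyp4f18, a cytochrome P450 that acts on leukotriene B4, stood at 5.83, 84.8, 110, 51.6 and 39.2 CPM in white matter and at no more than 4.97 CPM in grey matter. Its log2 fold change of 4.14 ± 1.06 came to 1.72 with plates that hold both tissues alone, and that of Tnfsf13b to 1.38, against 2.91 with all plates. Lsp1, a leukocyte actin-binding protein, had 1.43 ± 0.39, with little difference in A12 (507 CPM in white matter and 476 CPM in grey matter). Among the genes lower in white matter were Ncoa3, a nuclear receptor coactivator, the zinc finger genes Zscan26, Zfp691 and Zfp707, and Tcp11l2. Zscan26 averaged 99.8 ± 28.9 CPM in white matter and 236 ± 28.8 CPM in grey matter and Ncoa3 108 ± 34.2 CPM in white matter and 246 ± 31.7 CPM in grey matter, each without overlap. With plates that hold both tissues alone their log2 fold changes were -0.68 and -0.50, against -1.28 and -1.23 with all plates.

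The other lists are given by their counts, beside 1.36% of all genes at an unadjusted p under 0.05 with white matter higher. Of 23 tested integrin, adhesion and cytoskeleton genes 16 were positive and Capg, an actin-capping protein, was the 1 with an unadjusted p under 0.05, at 302 ± 121 CPM in white matter and 93.8 ± 60.0 CPM in grey matter. The list median was 0.31, against 0.92 in WT animals, and was 0.96 without A11 and 1.02 without cells that hold the planned markers of other types. Of 22 tested cytokine, chemokine and inflammasome genes 20 were positive, and the members with the smallest p, Tnf and Csf1, averaged 3.28 and 21.1 CPM in white and 0.03 and 1.20 CPM in grey matter. Of 23 tested complement, Fc and phagocytic receptors 18 were positive, with 2 at an unadjusted p under 0.05 (Axl and C4b). C4b, a complement component, was at 0 CPM in white matter of A10 and in grey matter of A8, A9 and A10. Immediate early genes had 11 of 16 positive and 3 at an unadjusted p under 0.05 (Klf2, Ier2 and Atf3). Ier2 stood at 97.2, 223, 181, 7.55 and 9.48 CPM in white matter, against 1.05, 0.28, 21.3, 0.65 and 17.1 CPM in grey matter, so its high values were those of A8, A9 and A10. The log2 fold change of Atf3 was 5.33 in A8, A9 and A10 and 0.35 in A11 and A12. Glycolysis genes had 13 of 17 positive, with Eno1, enolase, at 904 ± 156 CPM in white matter and 581 ± 118 CPM in grey matter. The log2 fold change of Eno1 was 0.65 ± 0.22, and 0.35 with plates that hold both tissues alone. Of 10 tested cell cycle genes 7 were positive and 0 reached an unadjusted p under 0.05 with white matter higher. Mcm3, a helicase subunit, reached it with white matter lower, at -2.91 (unadjusted p = 0.0377, edgeR), as did 1.22% of all genes, and had 0.23 with plates that hold both tissues alone. The partners of Trem2 in signalling had 7 of 17 positive, 10 negative and 0 at an unadjusted p under 0.05, with a median of -0.02.

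**Figure D4:**
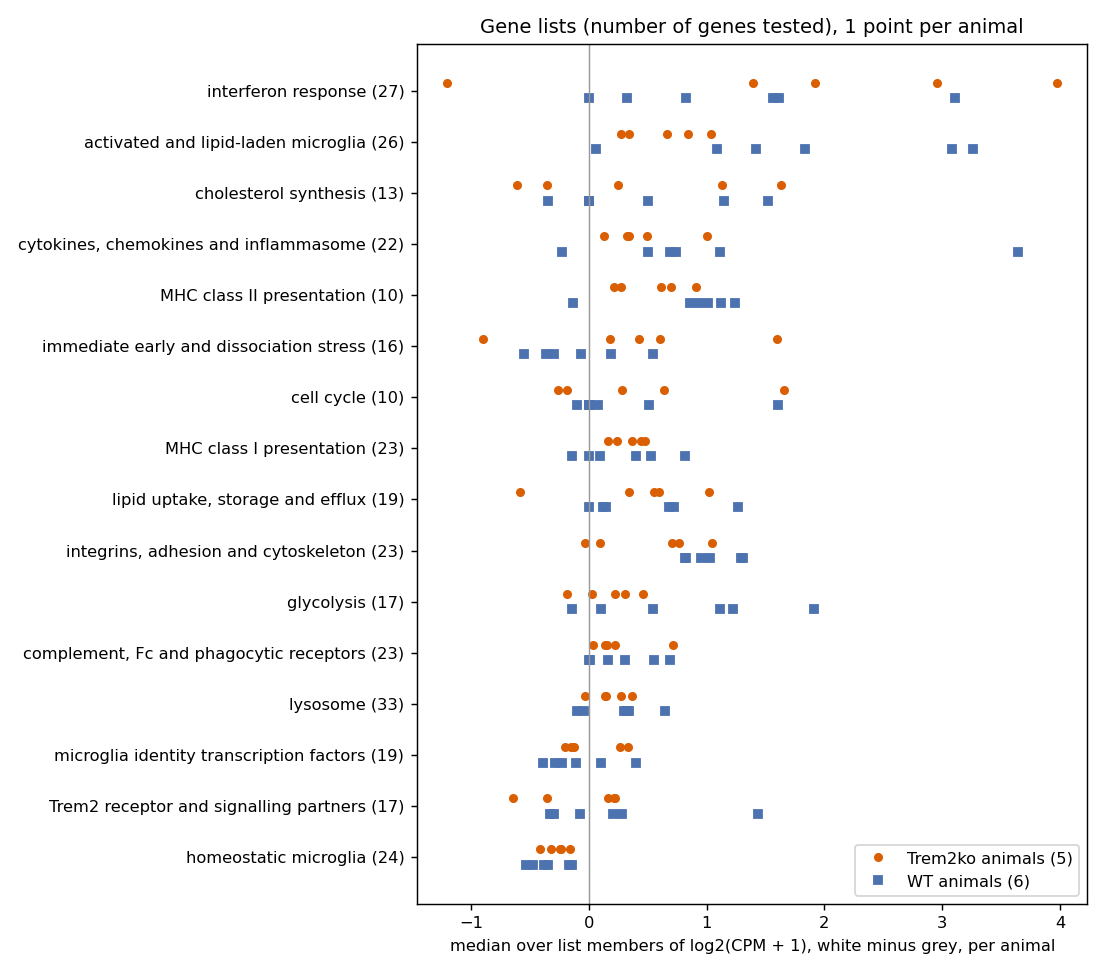
Median over the members of each gene list of the white minus grey difference in log2(CPM + 1), 1 point per animal, for 5 labelled Trem2ko animals (orange circles, upper) and 6 WT animals (blue squares, lower). Homeostatic genes lie below 0 in all 11 animals, and the activated list runs from 0.27 to 1.04 in labelled Trem2ko and from 0.06 to 3.26 in WT animals.

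The difference of tissue effects between labelled Trem2ko and WT animals passed an adjusted p of 0.05 for no gene (0%, edgeR), and 244 of 9920 genes had an unadjusted p under 0.05 (2.46%). The tissue effect of Lyz2 was 1.04 ± 0.33 in labelled Trem2ko and 2.68 ± 0.33 in WT animals, a difference of -1.65 ± 0.46 (SE; unadjusted p = 0.00225, adjusted p = 1, edgeR). In labelled Trem2ko animals the tissue effect was 5.52 ± 1.04 for Lpl, 1.06 ± 0.22 for H2-D1, -1.27 ± 0.23 for Fcrls and 5.05 ± 1.57 for Axl. In WT animals it was 7.58 ± 1.19 for Lpl, 1.57 ± 0.21 for H2-D1, -1.01 ± 0.21 for Fcrls and 4.85 ± 1.67 for Axl. The unadjusted p of the difference was 0.152 for Lpl, 0.111 for H2-D1, 0.425 for Fcrls and 0.924 for Axl (edgeR). The other genes with the smallest p were Yju2, Rnf41 and Ogfod2, with negative differences, and Tln1, Susd3, Nol6 and Fkbp15, with positive ones. Tln1, the integrin activator talin, was 1.00 ± 0.30 in labelled Trem2ko and -0.46 ± 0.26 in WT animals. Susd3 was 0.22 ± 0.16 in labelled Trem2ko and -0.60 ± 0.15 in WT animals, higher in white matter in 5 of 5 labelled Trem2ko and 0 of 6 WT animals. At an adjusted p of 1 these are leading values, not called differences.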

How the data were processed

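The deposited table holds raw counts per gene and cell of the aged Smart-seq2 cells, and its aligner, counter and genome build are not given in the sources used here. Trim Galore, Cell Ranger 4, bcl2fastq and FastQC appear in the submitters' processing notes without saying which of them made this table. The table joins 2 parts with 18081 gene symbols: 45 pairs of renamed symbols were joined, and 4493 genes at 0 in every cell of 1 part were left out (0.147% of reads). Counts were summed per animal and tissue where both tissues had 5 or more cells. The 22 libraries were fitted together with edgeR 4.0.16 (TMM, filterByExpr by genotype and tissue, robust quasi-likelihood, R 4.3.3) with the animal as a block, leaving 9920 genes. Each SE is the fold change divided by the square root of F. Statistics were tested on simulated data, and DESeq2 1.42.0 and limma 3.58.1 were alternatives. Reads carry no molecular identifiers and the Smart-seq2 counting is not stated to use strand, so overlapping genes cannot be told apart.

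Pairing comes from the animal in the labels, since both tissues of an animal share its number. The correlation of the deviations of an animal's white and grey matter libraries was 0.0123 to 0.116 over 5573 genes, and in A9, A10, A3 and A7 another animal's library correlated more. Named genes were 5 chosen markers, up to 10 genes in each direction with the smallest p at 20 CPM or more and 1 sign in every animal, up to 4 per list, Trem2, and up to 4 in each direction for the difference between genotypes. The members and lists were chosen with earlier results of these data known.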

Additional observations from a re-analysis of the deposited data

Results flagged for a closer look

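In 6 of 81 sets of 5 animals, 1 animal stood apart from the other 4 by more than Dixon's critical gap, and chance gives about 1 in 20. The Trem2 level of A12 was 1914 CPM in white matter and 1355 CPM in grey matter after TMM scaling, above the other animals labelled Trem2ko. The white minus grey difference on the log2(CPM + 1) scale was -3.23 for Zfp691 in A8, 5.30 for Anxa5 in A10, -3.81 for Stmn1 in A12 and 2.67 for Nol6 in A9.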

How the results depend on the processing

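Over 28 alternatives the log2 fold change ranged from 2.95 to 4.83 for Apoe, 4.14 to 6.03 for Lpl, -1.65 to -1.01 for Fcrls, 0.62 to 1.26 for H2-D1 and 3.38 to 5.79 for Axl. Of 79 named genes 63 kept their sign in every alternative that gave a value (24 to 28 of them) and 16 did not, and of 16 lists 11 kept the sign of their median, which ranged from 1.29 to 3.09 for interferon response, 0.56 to 1.77 for activated and -0.43 to -0.21 for homeostatic genes. The count of genes called in labelled Trem2ko animals, 0 with edgeR, was 72 with DESeq2 and 844 with limma voom. It was 1 with genes of at least 20 CPM, with the labelled Trem2ko animals alone, with no minimum of cells and with the mean of per-cell CPM (Apoe each time), and 1 with plates that hold both tissues (Tmem119, lower). Leaving out 1 animal gave 0 to 1 genes. Without the replicate block the count was also 0, with an adjusted p of 0.0549 for Apoe against 0.222 with it (edgeR), so the block changed no call. For the difference between genotypes DESeq2 called 30 genes, and 0 were called under the other alternatives. Leaving out cells by the planned markers, some of which microglia express, moved the median of all genes to 0.20. With plates that hold both tissues the sign turned for H2-DMb1 (-0.093), Btk (1.11), Anxa2 (-0.017), Mcm3 (0.23), Tuba1b (-0.015), Stmn1 (-3.22), Bhlhe41 (0.24), Nol6 (-0.050) and Ogfod2 (0.22). By the planned markers it turned for Hmgcs1 (-0.57), Pik3ap1 (-0.17), Hk1 (0.29), Stmn1 (-2.70) and Nol6 (-0.26), with limma voom for Ms4a6d (0.28), Tuba1b (-0.13) and Pcna (-0.0047). In A11 and A12 alone it turned for Ms4a6d (0.37), Tuba1b (-0.13), Stmn1 (-1.72) and Pcna (-0.21), and in A8, A9 and A10 alone for Pik3ap1 (-0.37) and Trem2 (-0.22). Trem2 also turned with no scaling (-0.020), no minimum of cells (-0.15) and without A10, A11 or A12, with -0.22 to 0.32 over the animals left out in turn, and Rnf41 without the replicate block (0.14), with the mean of per-cell CPM (0.15) and without A12, with -1.29 to 0.054 over the animals left out in turn. The causes were not tested. The settings by rarely read markers and by groups of animals were chosen after seeing the data. The common biological coefficient of variation was 1.06. With cells of at least 50000 reads the count was also 0.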

Other observations

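The animal A13, 28 months old and labelled Trem2ko, entered no comparison, having 4 white and 2 grey matter cells. Its unscaled levels were 26462 CPM of Apoe in white and 180 CPM in grey matter, 4315 CPM of H2-D1 in white and 1251 CPM in grey matter, and 629 CPM of Fcrls in white and 4093 CPM in grey matter. P2ry12 stood at 766 CPM in white matter and 5610 CPM in grey matter, and Lyz2 at 3433 CPM in white matter and 34.8 CPM in grey matter. Axl stood at 0 CPM in white matter and 1.42 CPM in grey matter, Cyp4f18 at 0.64 CPM in white matter and 3.55 CPM in grey matter, Lpl at 1.28 CPM in white matter and 0 CPM in grey matter, and Tmem119 at 6121 CPM in white matter and 6221 CPM in grey matter. Trem2 stood at 2737 CPM in its white matter and 2279 CPM in its grey matter, within the ranges of WT libraries and against the label.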
